A study of Bos taurus with 10 samples.

Results

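Gene expression was compared between 7 libraries labelled MSTN+/- and 2 of the 3 libraries labelled wild type, 9 of the 10 libraries of the series. MSTN encodes myostatin, a secreted inhibitor of muscle growth, and MSTN+/- means that 1 copy is edited. Per the labels, all 10 libraries hold total RNA of muscle from cattle aged 24 months, and no other allele, agent or treatment is named. The 7 are called MSTN+/- replicates 1 to 7 (titles LN010 to LN016), and the 2 are wild-type replicates 2 and 3 (LN019 and LN020). Wild-type replicate 1 (LN018) was left out because its values were unlike those of the other wild-type libraries. The libraries compared were thus chosen by their expression values, the 2 wild-type libraries that remained had been kept for their likeness, and every p-value below is conditional on it. The labels do not say whether libraries came from separate animals, so a p-value here reflects how much these libraries vary, and that variation could be technical.

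The contents looked like mouse cultured cells and not like cattle muscle. Of the 21130 rows of the table, 19415 were described as Mus musculus and 0 as Bos taurus, and none of the 30319 transcript accessions was found among those of cattle RefSeq. Mstn itself was listed at 0 in 5 of the 7 MSTN+/- libraries and in wild-type replicates 2 and 3, with 0.04 and 0.18 FPKM in MSTN+/- replicates 6 and 7. FPKM, the unit of the table, is a fragment count scaled by transcript length and by the library's mapped fragments. At that level Mstn could not check the genotype labels. Genes that define skeletal muscle fibres were low: 9 of 18 reached the level needed for testing, Ttn (titin) was at most 0.11 FPKM in the 7 and 0.40 in the pair, and Ckm (muscle creatine kinase) was at most 1.07 in the 9. Only Myh2 and Mylpf of that list reached 10 FPKM in any of the 9 libraries. Myod1 and Myog, which direct muscle differentiation, were at most 0.20 FPKM in the 9. Blood cell markers were near 0 as well, with 0 of 8 erythroid, 0 of 8 lymphocyte and 0 of 4 neutrophil markers tested.

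Naive pluripotent cells and fibroblasts are useful background for what the libraries did contain. Embryonic stem cells and other naive pluripotent cells of the mouse express a network of transcription factors that includes Nanog, Esrrb and Klf2, silence lineage genes, and divide fast. Fibroblasts are connective tissue cells that make collagen-rich matrix, carry the Hox code of their body position, and respond strongly to interferon. Pou5f1 (Oct4), Sox2, Klf4 and Myc are the factors commonly used to reprogram fibroblasts to pluripotency. The summed FPKM of 11 fibroblast markers was 2910 to 5780 in the 7, 412 and 291 in wild-type replicates 2 and 3 and 6070 in wild-type replicate 1. That of 11 pluripotent cell markers was 909 to 1570 in the 7, 2790 and 3130 in the pair and 2.29 in wild-type replicate 1. Pou5f1 and Sox2 were the largest terms of that sum in each of the 7.

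The libraries of each group were alike, and the groups were far apart. On log2(FPKM + 1), for genes with 1 FPKM or more in 2 or more of the 9 libraries, Pearson correlations across genes were 0.956 to 0.985 among the 7, 0.975 between the pair and 0.718 to 0.834 between the groups. Wild-type replicate 1 had correlations of 0.760 to 0.782 with the pair and 0.857 to 0.884 with the 7, and these values are the ground for leaving it out. Of the variance over genes, 78.7% lay between the groups, 18.1% within the 7 and 3.26% within the pair. The number of genes at 1 FPKM ran from 12353 to 13858 in the 9 libraries and was 11856 in wild-type replicate 1. FPKM carries no read count, so sequencing depth is unknown.

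Most genes differed between the groups. Of 14530 genes tested, 5956 were higher (41.0%) and 4672 lower (32.2%) in the MSTN+/- libraries, 73.1% in either direction (limma, Benjamini-Hochberg adjusted p under 0.05). The counts of every gene list below are to be read beside these shares. With a difference of at least 1 on the log2 scale as well, 3164 were higher (21.8%) and 1959 lower (13.5%). All 7 MSTN+/- values were above both wild-type values for 5959 genes (41.0%) and below both for 4674 (32.2%). The median difference over all genes was 0.13. After quantile normalization it was -0.08, with 4791 genes higher and 5590 lower, so that the higher share of the calls went from 56% to 46.2%. With wild-type replicate 1 put back, 4501 genes were higher (30.9%) and 1881 lower (12.9%). The 2 fits shared 4370 higher calls, 73.4% of the higher calls without that library and 97.1% of those with it. They shared 1834 lower calls, 39.3% of those without it and 97.5% of those with it.

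**Figure D1:**
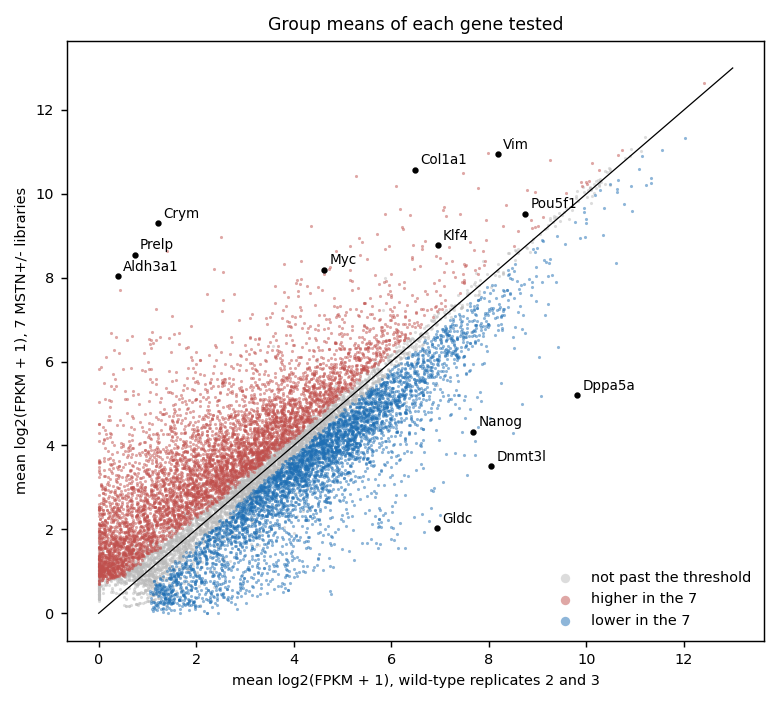
Mean log2(FPKM + 1) of each of the 14023 tested genes with a symbol, in wild-type replicates 2 and 3 (x axis) against the 7 MSTN+/- libraries (y axis). Red marks higher, blue lower and grey genes not past the threshold, and the line marks equal means. Crym, Prelp and Aldh3a1 lie far above the line, Dppa5a, Nanog, Dnmt3l and Gldc far below it, and Pou5f1 close to it.

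The filter shaped part of these counts. It passed 228 genes through wild-type replicates 2 and 3 alone, of which 223 were called lower, and 1787 genes through the MSTN+/- libraries alone, of which 1374 were called higher. Such genes had to differ. Members that passed through the MSTN+/- libraries alone included 27 of 31 tested Hox genes and 9 of 22 detoxification enzymes. The mesenchymal, matrix, complement and clock lists had 5 such members each. Of the markers tested, 3 of 8 for fibro-adipogenic progenitors and 3 of 9 for skeletal muscle fibres did so. Mx1 of the interferon list, Tgfb2 of the TGF-beta list and Gata6 of the primed list did so too. The MHC class I, contractile actin, cell-cycle brake, one-carbon and polycomb lists had 1 such member each. At the edge of the filter, 565 genes tested had reached 1 FPKM in exactly 2 libraries, and 743 genes not tested had reached it in exactly 1.

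The naive pluripotency network was lower in the MSTN+/- libraries, with 3 exceptions among its best known members. Of 28 factors, all tested, 25 were lower, 2 were higher and Sox2 passed in neither direction, with a median difference of -3.40. Nanog, a core transcription factor of the naive state, had 5.95, 20.1 and 55.0 FPKM as lowest, median and highest of the 7, against 234 and 177 in wild-type replicates 2 and 3 (log2 difference -3.35, adjusted p = 8.7e-04). Esrrb, an orphan nuclear receptor that sustains self-renewal, had 1.05, 9.39 and 23.9 FPKM against 134 and 132. Every MSTN+/- library was below both wild-type libraries for these genes. Zfp296, Tbx3 and Tfcp2l1, further transcription factors of this state, had the smallest p-values of the lower members, with log2 differences of -2.09 (SE 0.14, adjusted p = 6.5e-07), -2.71 (SE 0.25, adjusted p = 7.4e-06) and -1.69 (SE 0.20, adjusted p = 3.3e-05).

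Pou5f1, Sox2 and Klf4 did not fall with the rest of the network. Pou5f1 had 633, 776 and 848 FPKM as lowest, median and highest of the 7, against 346 and 533 in the pair (log2 difference 0.77, adjusted p = 0.0018). Klf4, a factor shared by naive cells and epithelia, had 348, 425 and 616 FPKM against 96.6 and 156 (log2 difference 1.83, SE 0.23, adjusted p = 4.9e-05). For both genes the 7 lay above the pair. Sox2, the DNA-binding partner of the Pou5f1 product, had 212, 263 and 357 FPKM against 224 and 202, overlapping groups with a log2 difference of 0.37 (adjusted p = 0.081). Myc, a growth-promoting transcription factor listed here with ribosome biogenesis, had 250.5, 284 and 379 FPKM against 25.1 and 22 (log2 difference 3.58, SE 0.14, adjusted p = 3.6e-08). In wild-type replicate 1 the levels were 0.38 FPKM for Pou5f1, 0.52 for Sox2, 29.8 for Klf4 and 43.2 for Myc, each below the lowest of the 7.

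**Figure D2:**
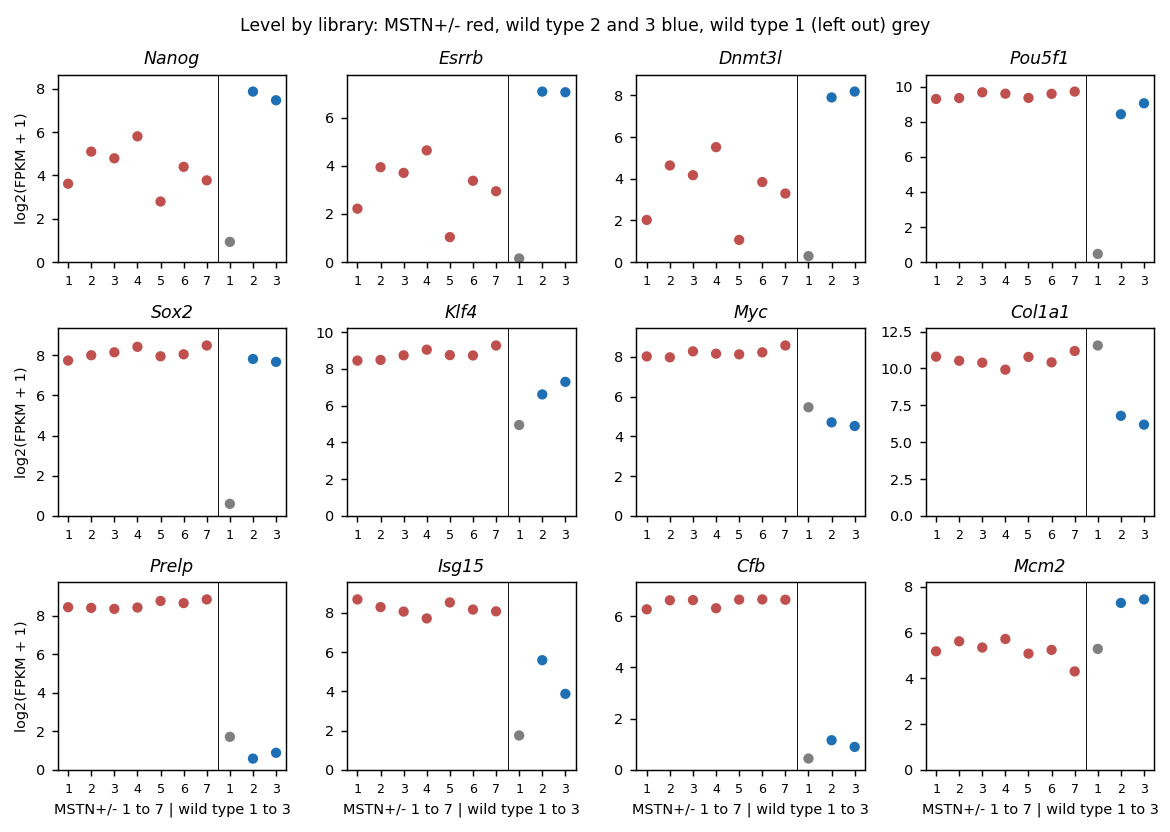
Level of 12 genes as log2(FPKM + 1) in each library, 1 point per library: MSTN+/- replicates 1 to 7 in red, wild-type replicates 2 and 3 in blue and wild-type replicate 1, left out of the comparison, in grey. Pou5f1, Sox2, Klf4 and Myc are high and even across the 7, and Nanog, Esrrb and Dnmt3l vary among them. Wild-type replicate 1 is near the 7 for Col1a1 and Mcm2, near the pair for Prelp and Cfb, and below all other libraries for Isg15.

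The level of the network differed between libraries within the 7. As a percent of the mean of wild-type replicates 2 and 3, the median over the 28 factors was 20.7% in MSTN+/- replicate 4, 13.6% in replicate 2, 11.0% in replicate 3, 7.36% in replicate 6, 4.94% in replicate 7, 4.31% in replicate 1 and 1.87% in replicate 5. In wild-type replicate 1 it was 0.0657%. Replicate 4 was the highest of the 7 for 23 of the 28 factors, against 29% of all tested genes with a symbol, and replicate 5 the lowest for 19, against 18.7%. Dppa5a, a pluripotency-associated RNA-binding protein, had 151 FPKM in replicate 4, 75.8 in replicate 2, 55.5 in replicate 3, 45.1 in replicate 6, 34.6 in replicate 7, 12.3 in replicate 1 and 5.21 in replicate 5. The pair had 829 and 977 FPKM of it. Pou5f1 and Klf4, in contrast, were highest in replicate 7 and lowest in replicate 1, and their highest and lowest values were less than 2-fold apart.

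**Figure D3:**
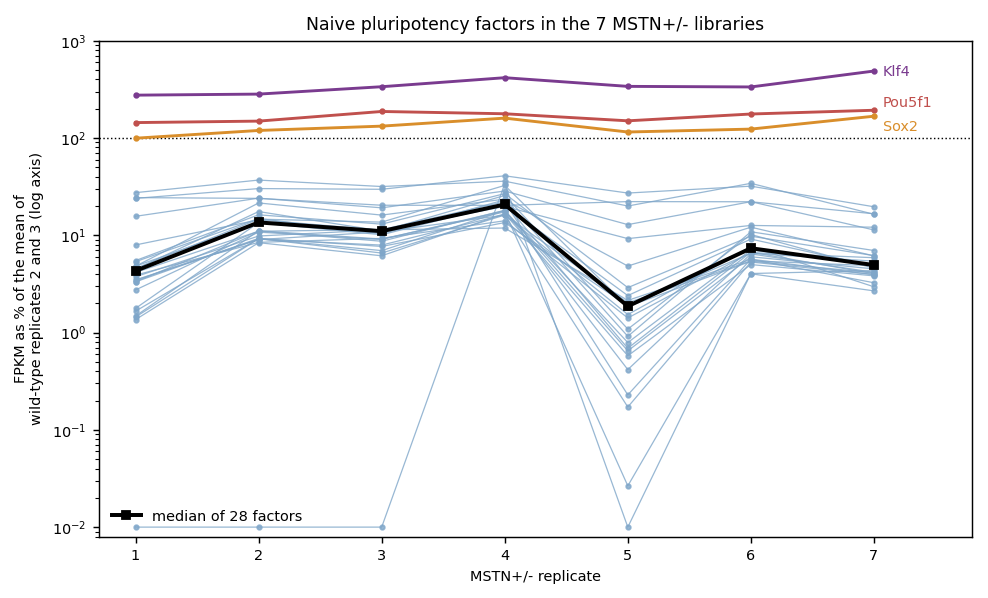
FPKM of each of the 28 naive pluripotency factors in the 7 MSTN+/- libraries as a percent of the mean of wild-type replicates 2 and 3 (log axis, dotted line at equality, values listed at 0 drawn at 0.01%). Thin lines join 1 factor across libraries, which have no order; the black line is the median, from 1.87% in replicate 5 to 20.7% in replicate 4, while Pou5f1, Sox2 and Klf4 run near or above 100%.

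Most of the lower pluripotency calls rested on leaving wild-type replicate 1 out. With it in the wild-type group, 1 factor was higher and 3 were lower, and the median difference was -1.44. The calls of Zfp296 (adjusted p = 0.54) and Tfcp2l1 (adjusted p = 0.94) ended. Wild-type replicate 1 was below all 9 other libraries for 23 of the 28 factors.

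Germline and 2-cell-stage genes, which naive cells express at low levels, were listed with 20 members, of which 19 had a row and 11 passed the filter on low values. Those 11 were lower, with a median difference of -2.54. Sycp1, Stk31 and Zp3 passed through the pair alone, so their values in the 7 had to lie below the pair. Without the filter 14 of 19 were lower and the median was -1.68. Leaving out wild-type replicate 2 or 3 gave 6 or 7 lower of 8 tested, and adding wild-type replicate 1 gave 4 of 11 and a median of -1.22. The 8 that did not pass the filter reached at most 3.78 FPKM in any of the 9 libraries. Nlrp4f, an oocyte-expressed gene of the NLR family, had 0.03, 0.39 and 1.39 FPKM as lowest, median and highest of the 7 against 30.2 and 22.1 (log2 difference -4.22, SE 0.29, adjusted p = 8.9e-07). Zp3, a coat protein of the egg, had at most 0.62 FPKM against 9 and 5.66. Ddx4, a helicase of germ cells, had at most 1.52 FPKM against 5.22 and 10.4. MSTN+/- replicate 4 was the highest of the 7 for all 11.

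Genes of primed pluripotency and the germ layers were tested for 11 of 20 members, with 7 lower, 2 higher and a median of -1.42. Over all genes 32.2% were lower and 73.1% were called. Sox7, among the lower members, passed the filter through the pair alone, and Gata6, among the higher, through the MSTN+/- libraries alone. These 2 calls had to go in those directions. Without the filter 10 of 20 were lower and 2 higher, and the median was -0.18. The 9 others, among them T, Sox17 and Pax6, stayed at or below 1.14 FPKM. Zic5 and Eomes, transcription factors of the early embryo, had log2 differences of -2.38 (SE 0.31) and -1.42 (SE 0.23), and both calls ended with wild-type replicate 1 (adjusted p = 0.15 for each), which left 1 member lower. Nes (nestin), a filament protein of progenitor cells, was higher, with 19.8 to 31.0 FPKM in the 7 against 4.42 and 3.67.

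The machinery of DNA methylation was lower for 11 of 14 members and higher for 3, with a median of -1.45. Over all genes 32.2% were lower and 73.1% were called. Dnmt3l, the cofactor of the de novo methyltransferases, had 1.09, 13.3 and 44.7 FPKM against 238 and 289 (log2 difference -4.54, adjusted p = 0.0017). Dnmt3b, a de novo methyltransferase, had 2.24, 9.64 and 20.7 FPKM against 156 and 224 (log2 difference -4.26, adjusted p = 1.8e-04). The groups were separated for both genes. Dnmt3a had 11.1 to 14.9 FPKM against 23.9 and 30.0, a smaller difference of -1.06. The TET enzymes, which oxidise methylcytosine, went in opposite directions: Tet1 had 1.25 to 10.1 FPKM against 49.7 and 62.6, Tet2 4.82 to 8.46 against 20.5 and 20.8, and Tet3 5.4 to 6.53 against 1.53 and 1.49. Tet3 was higher by 1.47 (SE 0.093, adjusted p = 5.9e-07). With wild-type replicate 1, 4 members were lower and 3 higher, and the calls of Dnmt3b (adjusted p = 0.22), Dnmt3l (0.33), Tet2 (0.36) and Dnmt3a (0.22) ended.

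Polycomb and heterochromatin genes went in both directions. Of 29, 17 were lower and 7 higher, with a median of -0.81, against 32.2% lower and 73.1% called over all genes. Eed and Suz12, core subunits of the repressive complex PRC2, had 14.2 to 23.7 FPKM against 81.0 and 81.0, and 13.6 to 25.9 against 72.2 and 63.8. Their log2 differences were -2.08 (SE 0.16, adjusted p = 1.9e-06) and -1.78 (SE 0.18, adjusted p = 1.3e-05). Kdm2b, a further polycomb gene, was lower too (log2 difference -1.57, SE 0.16, adjusted p = 1.3e-05). Among the higher genes were Ezh1 and Phf1 of PRC2, and Cbx6, Cbx8, Ring1 and Bmi1, which belong to the other complex, PRC1. Bmi1 was higher by 1.77 (adjusted p = 5.7e-07) and Cbx8 by 1.67 (adjusted p = 4.6e-06). Wild-type replicate 1, at 16.8 FPKM of Eed and 17.7 of Suz12, lay within the range of the 7 for both genes, and with it 9 members were lower and 7 higher.

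Epithelial junction genes were lower for 13 of 20 and higher for 4, against 32.2% lower and 73.1% called over all genes. Their median was -1.37. Cdh1 (E-cadherin) had 11.3, 18.6 and 28.9 FPKM as lowest, median and highest of the 7 against 100.2 and 158 (log2 difference -2.86, SE 0.34, adjusted p = 3.7e-05). Epcam, another adhesion molecule of epithelia and stem cells, had 12.9 to 31.3 FPKM against 95.4 and 152. Both were far lower still in wild-type replicate 1, at 0.06 and 0.31 FPKM, which was below all 9 others for 19 of the 20 genes. With that library in the wild-type group no member was lower and 4 were higher, the median was -0.26, and Cdh1 (adjusted p = 0.73) and Epcam (0.81) lost their calls. The 4 genes higher without that library, Krt8, Krt19, Dsp and Cldn3, are keratins and junction proteins as well, and Krt19 had 27.4 to 64.1 FPKM against 2.25 and 6.57.

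Mesenchymal transcription factors were higher as a block. Of 22 tested genes of this list, which also holds genes of the epithelial-to-mesenchymal transition, 21 were higher, none lower, and the median was 2.03. Meox2, a homeobox factor of mesoderm, had 18.8, 24.1 and 26.7 FPKM against 0.17 and 0.17 (log2 difference 4.39, SE 0.12, adjusted p = 6.2e-09). Foxd1, a stromal transcription factor, had 22.8 to 44.9 FPKM against 0.20 and 0.12. Meox2 and Foxd1 entered the test through the MSTN+/- libraries alone. S100a4, a calcium-binding protein of fibroblasts, had 192 to 248 FPKM against 19.7 and 17.1. Foxc2 was the member that did not pass (log2 difference -0.24, adjusted p = 0.22). Once wild-type replicate 1 was added, 11 members were higher, and the median was 1.28.

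Hox genes encode position along the body axis, and 27 of those tested passed the filter through the MSTN+/- libraries alone. Of 33 genes, 31 were tested, 30 were higher, and the median was 1.94 (3.71 with a pseudocount of 0.1). Hoxa10 had 13.3, 16.3 and 19 FPKM against 0.51 and 0.59 (log2 difference 3.48, SE 0.12, adjusted p = 2.1e-08). Hoxa5 had 6.83 to 8.28 FPKM against 0.27 and 0, and Hoxb3 5.50 to 7.68 against 0.33 and 0.18. Wild-type replicate 1 had 13.4 FPKM of Hoxa10, 2.95 of Hoxa5 and 4.04 of Hoxb3, was nearer the 7 than the pair for 28 of the 31, and left 24 higher when put back.

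Extracellular matrix genes carried some of the highest levels. Of 37, 35 were higher, Mmp3 was lower, Fbln1 did not pass, and the median was 3.46. Col1a1, a chain of type I collagen, had 969, 1471 and 2329 FPKM against 109.7 and 72.2 (log2 difference 4.08, adjusted p = 9.2e-07). Prelp, a small proteoglycan of connective tissue, had 326, 346 and 458 FPKM against 0.50 and 0.85 (log2 difference 7.82, SE 0.15, adjusted p = 6.2e-10). The groups were separated for both genes. Prelp entered the test through the MSTN+/- libraries alone. Col4a1, a basement membrane collagen, and Timp3, an inhibitor of matrix proteases, were higher by 3.58 (SE 0.11) and 5.84 (SE 0.20). Mmp3, a matrix protease, had 1.75 to 9.58 FPKM against 35.7 and 78.2.

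Wild-type replicate 1 did not treat the matrix genes alike. It had 3017 FPKM of Col1a1, above all 7, and 189 of Col4a1, inside their range. It had 2.28 FPKM of Prelp, 1.18 of Col15a1, 2.35 of Col14a1 and 24.3 of Dcn (decorin), each below the lowest of the 7, at 326, 32.9, 9.53 and 169. With it in the wild-type group 24 matrix genes were higher, and the median was 2.14. Within the 7, MSTN+/- replicate 7 was the highest for 28 of the 37 and replicate 4 the lowest for 18, against 18.2% and 13.5% of all tested genes with a symbol.

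Genes of the contractile actin cytoskeleton showed a difference that wild-type replicate 1 undid. Of 20 tested, 14 were higher and 3 lower, with a median of 0.90, against 41.0% higher and 73.1% called over all genes. Actg2, a smooth muscle actin, had 29.4, 31.9 and 57.1 FPKM against 1.13 and 0.45, and Acta2, the actin of myofibroblasts, 90.4, 126 and 177 against 21.3 and 9.06. Tpm4, a tropomyosin, and Tagln2, an actin-binding protein, were higher by 1.71 and 0.95. Cnn3, Cnn1 and Actn4 were lower, by 0.25 to 0.58 on the log2 scale. Wild-type replicate 1 was above all 9 others for all 20 genes, with 1402 FPKM of Acta2 and 127 of Actg2. Put back, it left no member higher and 2 lower and turned the median to -0.10, and Tpm4 (adjusted p = 0.30), Actg2 (0.11) and Tagln2 (0.64) lost their calls.

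**Figure D4:**
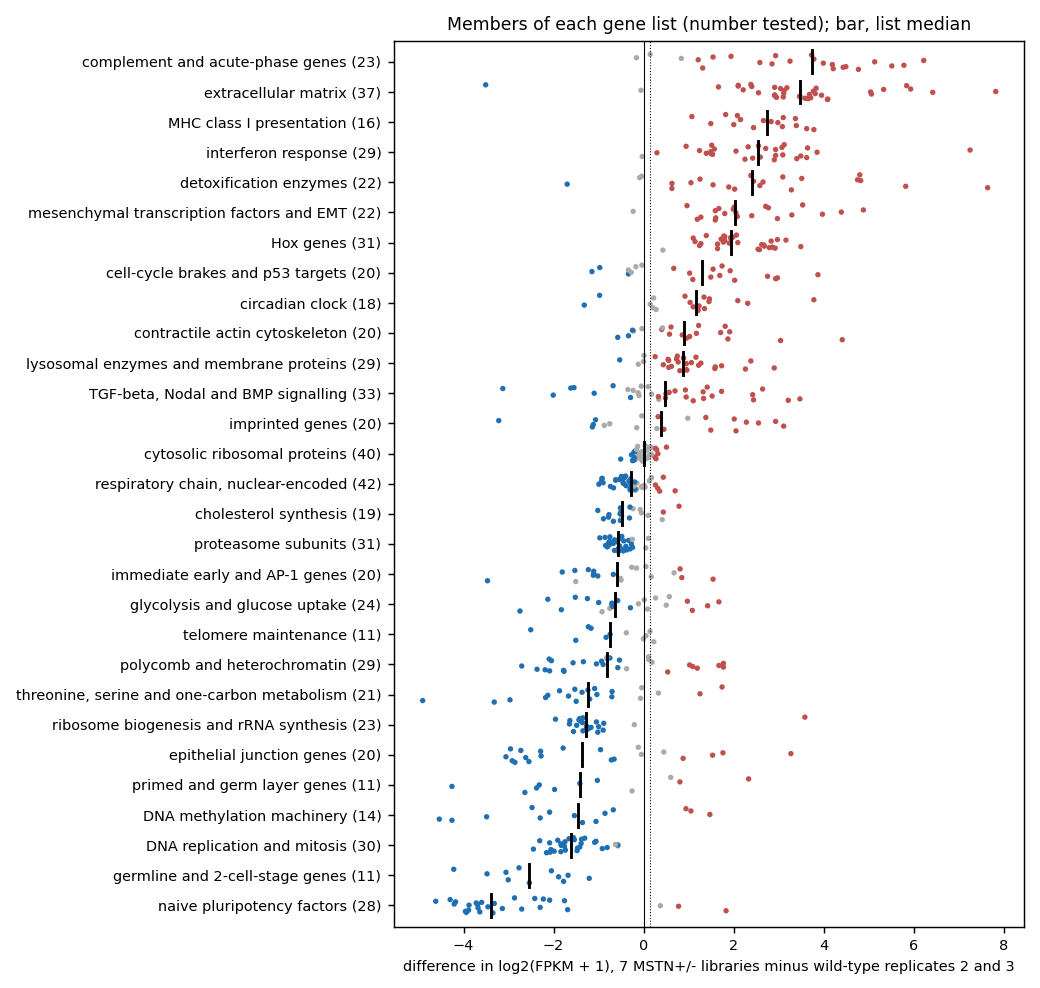
Difference in log2(FPKM + 1), 7 MSTN+/- libraries minus wild-type replicates 2 and 3, for every tested member of 29 gene lists, red for higher, blue for lower and grey for not past the threshold; black bars are list medians, the solid line is 0 and the dotted line the median of all genes, 0.13. Medians run from -3.40 for naive pluripotency factors to 3.73 for complement and acute-phase genes.

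Interferon response genes were higher for 28 of 29, none lower, with a median of 2.55. Isg15, a ubiquitin-like protein induced by interferon, had 209, 286 and 410 FPKM as lowest, median and highest of the 7 against 47.1 and 13.7 (log2 difference 3.49, adjusted p = 1.8e-05). Mx1, an antiviral GTPase, had 6.48 to 11.4 FPKM against 0.46 and 0.20, and Gbp7, a guanylate-binding protein, 17.1 to 21.7 against 2.82 and 0.55. Ifi27l2a had the largest difference, 287 to 556 FPKM against 4.61 and 0.23 (log2 7.25, SE 0.45). The sensor of viral RNA Ddx58 (RIG-I) did not pass, at 30.4 to 43.4 FPKM against 45.3 and 29.6.

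The pair differed among themselves in this list. Wild-type replicate 2 was above replicate 3 for all 29 interferon genes, against 52.1% of all tested genes with a symbol. The median difference was 1.89 without replicate 3 and 3.22 without replicate 2. Wild-type replicate 1 was lower again, with 2.37 FPKM of Isg15 and 0.03 of Mx1. It was below all 9 others for 25 of the 29, and 28 stayed the count of higher members when it was put back. Of the 7, MSTN+/- replicate 1 was highest for 22 genes, against 11.5% of all tested genes with a symbol.

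MHC class I presentation, which displays peptides to T cells, was higher for all 16 members tested, against 41.0% higher over all genes. The median was 2.74, and the count was the same with wild-type replicate 1. Of the 16, 1 entered the test through the MSTN+/- libraries alone and so had to be higher. H2-Q7 and H2-Q4, class I heavy chains, had 20.9 to 30.5 FPKM against 1.25 and 2.03, and 95.9 to 120.4 against 22.2 and 15.0. These genes have near-identical copies, so reads may have been divided among them. Psmb9, a subunit of the immunoproteasome, had 16.9 to 27.4 FPKM against 1.92 and 1.78 (log2 difference 3.10, SE 0.16, adjusted p = 1.8e-07).

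Complement and acute-phase genes had the highest median of the 29 program lists, 3.73, with 20 of 23 higher and none lower (19 higher with wild-type replicate 1). Cfb, a protease of the alternative pathway, had 75.8, 97.7 and 99.5 FPKM against 1.23 and 0.86 (log2 difference 5.51, SE 0.13, adjusted p = 3.2e-09). C1ra, a protease of the classical pathway, had 76.9 to 93.8 FPKM against 2.46 and 1.83. All 7 values lay far above the pair for both genes, and wild-type replicate 1 was nearer the pair at 0.36 and 5.01 FPKM. The inflammatory mediators Il6 and Cxcl1 did not pass (log2 differences 0.14 and -0.16).

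Detoxification enzymes were higher for 19 of 22, with a median of 2.41, and Gsta4 was lower. Aldh3a1, an aldehyde dehydrogenase, had 195, 242 and 361 FPKM against 0.32 and 0.31 (log2 difference 7.64, SE 0.23, adjusted p = 8.6e-09) and was listed at 0 in wild-type replicate 1. Fmo1, a flavin monooxygenase, had 50 to 69.7 FPKM against 0.04 and 0.04, and Ephx1, an epoxide hydrolase, 289 to 322 against 32.1 and 20.7. Aldh3a1 and Fmo1 entered the test through the MSTN+/- libraries alone. Nqo1, a quinone reductase, did not pass (log2 difference -0.09). Gsta4, a glutathione transferase, had 81.9 to 191 FPKM against 394 and 344, and its call ended with wild-type replicate 1 (adjusted p = 0.96), where it had 11.3 FPKM.

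Surface markers of fibro-adipogenic progenitors, the resident connective tissue cells of muscle and other organs, were higher for 8 of 8. Over all genes 41.0% were higher. Of the 8 markers, 3 entered the test through the MSTN+/- libraries alone, Pi16 and Clec3b among them, so these had to be higher. Ly6a (Sca-1) had 1144, 1388 and 1510 FPKM against 63.3 and 22.6, Cd34 177, 194 and 235 against 7.39 and 1.59, and Pi16 15.8, 18.9 and 30.3 against 0 and 0.18. Wild-type replicate 1 was at 49.3, 8 and 0.08 FPKM for these 3 genes. The summed FPKM of the 8 markers was 1460 to 1890 in the 7, 83.7 and 33.4 in the pair and 88.3 in wild-type replicate 1. In bulk RNA a smaller share of cells of a type and less RNA per cell cannot be told apart.

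Circadian clock genes were higher for 12 of 18 and lower for 2, against 41.0% higher and 73.1% called over all genes. The median was 1.15. Nr1d1, a repressor in the clock's second loop, had 26.0 to 34.8 FPKM against 5.24 and 5.17, and Dbp, a clock output factor, 24.9 to 49.8 against 1.2 and 1.61. Clock itself was higher by 1.21 (SE 0.096). Cry1, a repressor of the clock, was lower, at 4.42 to 7.15 FPKM against 15.2 and 16.6, while Arntl, Per1 and Cry2 did not pass.

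Lysosomal genes were higher for 25 of 29 and lower for 1, against 41.0% higher and 73.1% called over all genes. Their median was 0.88. Ctsf, a cathepsin, had 27.0 to 39.4 FPKM against 5.69 and 5.4, Lamp2, a lysosomal membrane protein, 91.3 to 119 against 32.8 and 27.7, and Naglu, an enzyme of heparan sulfate breakdown, 14.5 to 22.9 against 2.28 and 2.34. Npc1, a cholesterol exporter, was lower by 0.53 on the log2 scale (-0.53, SE 0.11). The number higher was 11 with wild-type replicate 1.

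The TGF-beta, Nodal and BMP pathway, to which myostatin belongs, held genes of both directions. Of 33 genes tested, 18 were higher, 7 lower and 8 did not pass, against 41.0% higher and 73.1% called in either direction over all genes, so the counts lay near those shares. The median was 0.48, which was 0.28 after quantile normalization, and without wild-type replicate 2 the lower members numbered 4. Among ligands, Tgfb2 had 8.82, 10.6 and 16.1 FPKM against 0.25 and 0.42 (log2 difference 3.21, SE 0.20, adjusted p = 5.3e-07), and Tgfb1 and Tgfb3 were higher by 1.1 and 2.44. Nodal, the ligand of the early embryo, had 0.68, 2.31 and 6.03 FPKM against 21.5 and 32.1 (log2 difference -3.13, adjusted p = 1.6e-04), and its inhibitors Lefty1 and Lefty2 were lower by 1.62 and 1.55 (-1.62 and -1.55). Among receptors, Tgfbr2 had 58.2, 70.2 and 86.1 FPKM against 7.02 and 4.25 (log2 difference 3.47, SE 0.17). Acvr2b, a type II receptor that binds myostatin, was at most 1.69 FPKM in the 9 and did not pass, while Acvr2a, the related receptor, was higher by 0.70. Fst (follistatin), a soluble binder of activin and myostatin, was higher at 14.8 to 28.6 FPKM against 3.01 and 1.78.

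Inside the cell, Smad5, a transducer of BMP signals, was higher by 1.52 (SE 0.086), Smad3 by 0.94 and Smad4 by 0.33, and Smad2 was lower (-0.29). Smad7, the inhibitory Smad, had 4.34, 5.10 and 6.44 FPKM against 23.6 and 24.9 (log2 difference -2.01, SE 0.13, adjusted p = 5.9e-07). Of the target genes, Id1 was higher by 2.42 and Id2 did not pass (log2 difference 0.17). With wild-type replicate 1 in the wild-type group, 7 genes of the pathway were higher and 4 lower, and the median was 0.19.

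DNA replication and mitosis genes were lower for 28 of 30 and higher for none, with a median of -1.61. Cdt1, which licenses replication origins, had 9.66, 15.7 and 23.1 FPKM against 84.0 and 96.6 (log2 difference -2.45, SE 0.25, adjusted p = 1.5e-05). Cdc6, its partner, had 1.86 to 5.16 FPKM against 18.3 and 18.8, and Pole, a replicative polymerase, 4.75 to 10.6 against 24.8 and 32.8. Mki67, the common proliferation marker, and Rrm1 did not pass (adjusted p = 0.072 and 0.055). MSTN+/- replicate 7 was the lowest of the 7 for all 30 genes, against 28.7% of all tested genes with a symbol. The median level of the list as a percent of the pair was 16.3% in replicate 7 and 31.2% to 40.9% in the other 6. Without replicate 7 the median difference was -1.46, and with wild-type replicate 1, whose level was 38.9%, 24 genes were lower.

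Cell-cycle brakes and p53 targets were higher for 13 of 20 and lower for 3, with a median of 1.29. Over all genes 41.0% were higher and 73.1% were called. Cdkn2a, the locus of the inhibitors p16 and p19Arf, had 88.1, 118 and 129 FPKM against 13.6 and 14.0 (log2 difference 2.97, SE 0.13, adjusted p = 6.3e-08). Ccnd2, a G1 cyclin included in the list, had 224 to 282 FPKM against 20.3 and 12.2, and Rbl2, a pocket protein, 8.85 to 10.7 against 2.92 and 2.65. Trp53 itself was lower (log2 difference -1.15), as were Ccnd3 and Sesn2. Adding wild-type replicate 1 left 11 higher and 2 lower.

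Ribosome biogenesis genes were lower for 21 of 23, with Myc as the only higher member and a median of -1.27. Rrn3, an initiation factor of RNA polymerase I, had 23.1, 29.7 and 32.7 FPKM against 90.6 and 97.1 (log2 difference -1.65, SE 0.12, adjusted p = 1.1e-06). Heatr1 and Pes1, assembly factors, were at 7.67 to 13.8 against 44.3 and 48.2, and 37.9 to 46.9 against 90.5 and 89.3. The ribosomal proteins themselves showed no common direction: 6 of 40 were higher, 8 lower and 26 did not pass. These were fewer calls than the 73.1% over all genes. The counts were 2 higher and 5 lower without wild-type replicate 2, 3 and 2 without replicate 3, and 2 and 3 without the filter on low values. The median was 0.01, which turned to -0.03 with median-of-ratios scaling and to -0.01 after quantile normalization. Rps19 had 578 to 721 FPKM against 471 and 465, and Rpl8 1066 to 1173 against 1525 and 1661. The 28 lower calls among 31 proteasome subunits were small, with a median of -0.56 and none reaching 1 on the log2 scale. Psmd11, a lid subunit, had 43.0 to 58.3 FPKM against 104 and 107. Adding wild-type replicate 1 left 15 biogenesis genes and 12 proteasome subunits lower. It left 0 ribosomal proteins lower and 6 higher, with a median of 0.26, and ended the calls of Pes1 (adjusted p = 0.062) and Rpl8 (0.32).

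Threonine, serine and one-carbon metabolism, on which mouse pluripotent cells depend, was lower for 16 of 21 and higher for 2, with a median of -1.24. Gldc, the glycine decarboxylase, had the largest decrease of all named genes: 1.01, 3.47 and 11.3 FPKM against 117 and 127 (log2 difference -4.91, SE 0.57, adjusted p = 3.2e-05). Shmt1, a serine hydroxymethyltransferase, had 6.88 to 16.2 FPKM against 63.0 and 65.2, and Gcat, of threonine breakdown, 5.04 to 8.45 against 19.5 and 23.4. Mthfd2l, a mitochondrial folate enzyme, was higher by 1.25 (SE 0.10). Wild-type replicate 1 had 0.12 FPKM of Gldc, and with it the call of Gldc ended (adjusted p = 0.12), as did those of Shmt1 (0.061) and Mthfd2l (0.057), and 10 members were lower.

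Respiratory chain genes were lower for 25 of 42 and higher for 5 by small amounts, with a median of -0.29. Over all genes 73.1% were called, a share near that of this list, with 32.2% lower and 41.0% higher. Uqcrc1 and Cyc1, of complex III, and Atp5b, of the ATP synthase, were lower with log2 differences of -0.996, -0.90 and -0.92, and Ndufa2, of complex I, was higher by 0.70. The lower members numbered 7 with wild-type replicate 1. Glycolysis genes were lower for 11 of 24 and higher for 4, fewer calls than the 73.1% over all genes, of which 32.2% were lower. Their median was -0.63 (-0.39 after quantile normalization, and -0.14 with wild-type replicate 1, with which 1 was lower and 5 higher). Hexokinases went in opposite directions: Hk2 had 9.88 to 32.0 FPKM against 50.5 and 72.7, and Hk1 48.2 to 68.3 against 29.1 and 24.7. The call of Hk2 ended with wild-type replicate 1 (adjusted p = 0.12). MSTN+/- replicate 1 was the lowest of the 7 for 19 of the 24, against 17.2% of all tested genes with a symbol. Cholesterol synthesis was lower for 11 of 19 and higher for 2, against 32.2% lower and 73.1% called over all genes. The median was -0.49, and the count rested on wild-type replicate 3. Without that library 3 were lower and 2 higher, with a median of -0.20, and without replicate 2 the numbers were 13 and 0, with a median of -0.68. Sqle, an enzyme of sterol synthesis, had 18.4 to 32.4 FPKM against 44.8 and 51.2.

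Immediate early genes varied inside the MSTN+/- group. Of 20, 9 were lower, 3 higher and 8 did not pass, with a median of -0.60 and fewer calls than the 73.1% over all genes. Without wild-type replicate 3 the lower members numbered 3 and the higher 3. Fosb, a component of the transcription factor AP-1, had 17.9 and 19.5 FPKM in MSTN+/- replicates 3 and 7 and 1.73 to 4.90 in the other 5, against 38.6 and 105 in the pair (log2 difference -3.47, SE 0.82, adjusted p = 0.0033). Without wild-type replicate 3 its adjusted p was 0.052. Fos had 112 and 116 FPKM in replicates 3 and 7 and 18.5 to 52.3 in the others, and its log2 difference of -1.51 did not pass (adjusted p = 0.075). Atf3, a stress-induced factor, was lower in all 7, at 1.40 to 2.55 FPKM against 7.30 and 11.8. Fosl2 was higher by 1.54 (SE 0.20), a call that ended with wild-type replicate 1 (adjusted p = 0.30).

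Imprinted genes, which are read from 1 parental copy, were higher for 10 of 20 and lower for 4, near the 41.0% higher and 73.1% called over all genes. Their median was 0.38 (0.10 with 4 higher and 2 lower once wild-type replicate 1 was added, 0.71 without wild-type replicate 3). Cdkn1c, a maternally expressed cell-cycle inhibitor, had 26.4, 34.9 and 52.3 FPKM against 4.09 and 3.34 (log2 difference 2.93, SE 0.21, adjusted p = 1.2e-06). H19 had 201 to 626 FPKM against 91.8 and 104, and 1979 in wild-type replicate 1. Snrpn, expressed from the paternal copy, had 29.9 to 44.5 FPKM against 71.5 and 83.0, and with wild-type replicate 1, at 6.79 FPKM, its difference turned from -1.07 to 0.04. Telomere genes were lower for 6 of 11 and higher for none, against 32.2% lower and 73.1% called over all genes, with a median of -0.75 (-0.48 without wild-type replicate 3, and 1 lower member with wild-type replicate 1). Rif1, which binds telomeres and replication origins, had 6.68 to 16.2 FPKM against 67.2 and 59.3, a call that ended with wild-type replicate 1 (adjusted p = 0.099).

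The largest single increases were for Crym, Prelp, Aldh3a1, Fndc1, Ifi27l2a, Ly6c1, Fmod, Lbp, Igfbp6, Sostdc1, Clec3b and Srgn, with log2 differences from 8.09 down to 5.95. Of these, all but Crym, Ifi27l2a, Ly6c1 and Igfbp6 entered the test through the MSTN+/- libraries alone. Crym, a thyroid hormone-binding crystallin, had 536, 624 and 755 FPKM against 1.45 and 1.2 (SE 0.13, adjusted p = 6.2e-10) and 0.30 in wild-type replicate 1. Lbp, the carrier of bacterial lipopolysaccharide, had 72.0 to 131 FPKM against 0.44 and 0.14, and Sostdc1, a secreted BMP and Wnt antagonist, 51.9 to 92.0 against 0.11 and 0.11. Fmod (fibromodulin, a collagen-binding proteoglycan) varied most among these within the 7, from 36.8 to 223 FPKM. Fmod and Igfbp6 had 11.1 and 25.01 FPKM in wild-type replicate 1, and the other 10 at most 10.1.

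The largest decreases were for Gldc, Zfp534, Pla2g1b, Gm13051, Dppa5a, Rex2, Gm13242, Dnmt3l, Pbld1, Lin28a, Lncenc1 and Dnmt3b, with log2 differences from -4.91 to -4.26. Lin28a, an RNA-binding repressor of let-7 processing, had 0.03, 4.54 and 19.7 FPKM against 94.3 and 132 (SE 0.95, adjusted p = 0.0021). Zfp534, Rex2, Gm13051 and Gm13242 are related zinc finger genes with similar sequences, so reads may have been divided among them. Pbld1 was the steadiest, at 0 to 0.53 FPKM in the 7 against 23.6 and 28.8, and it entered the test through the pair alone. All 12 were at or below 0.79 FPKM in wild-type replicate 1, and with it in the wild-type group 11 of the 12 calls ended, with adjusted p from 0.11 to 0.55 and Pbld1 as the exception.

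Single markers of other tissues went against the low level of their lists. Mylpf, a fast muscle myosin light chain, had 6.24, 13.3 and 26.7 FPKM against 155 and 125 (log2 difference -3.34, adjusted p = 8.0e-05), and 0.75 in wild-type replicate 1. Myh2, a fast myosin heavy chain, had 5.73, 12.7 and 15.3 FPKM against 0.02 and 0 (log2 difference 3.58). It entered the test through the MSTN+/- libraries alone, so it had to be higher. Of endothelial markers, Tek, the angiopoietin receptor, had 15.8 to 23.6 FPKM against 2.24 and 1.37, and Pecam1, an adhesion molecule also found on pluripotent cells, 0.09 to 5.75 against 26.4 and 24.3, while Kdr, Tie1 and Emcn were at most 0.32 in the 9. Cd68 was the only macrophage marker at 10 FPKM, with overlapping groups (log2 difference -0.25), and Ptprc, Aif1 and Tyrobp were at most 0.12 in the 9. Krt5 and Krt14, keratins of surface epithelium, had 1.11 to 17.1 and 7.42 to 24.2 FPKM in the 7 and at most 0.09 in the pair. Both also entered the test through the MSTN+/- libraries alone. The part of these other cell types in the results above was not tested.

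The group mean nearest to wild-type replicate 1 differed between lists, but being nearer did not place it within that group. It was below all 9 others for 23 of the 28 naive pluripotency factors and 25 of the 29 interferon genes. On the log2 scale it was nearer the mean of the 7 for 65.6% of the 14023 tested genes with a symbol. The share was 32 of 37 for the extracellular matrix, 28 of 31 for Hox genes, 20 of 22 for mesenchymal factors and 25 of 28 for naive pluripotency factors. It was 2 of 29 for interferon response, 1 of 16 for MHC class I, 4 of 23 for complement and acute-phase genes and 5 of 22 for detoxification enzymes. It was also low for cholesterol synthesis (5 of 19), clock genes (7 of 18) and fibro-adipogenic progenitor markers (1 of 8). Of the 1959 genes lower by at least 1, it was within the range of the 7 for 46.4%, below both groups for 36.5% and within the range of the pair for 0.97%. Of the 3164 genes higher by at least 1, it was between the groups for 43.2%, within the 7 for 18.1% and within the pair for 8.53%.

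**Figure D5:**
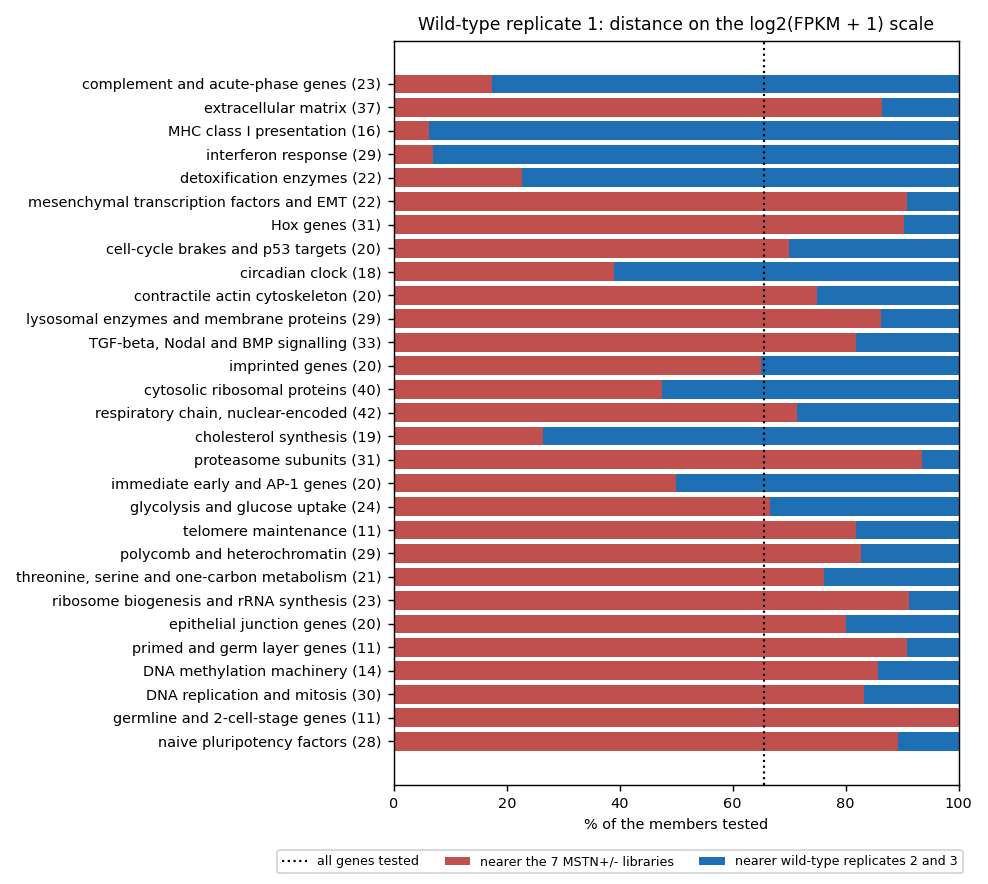
Share of the tested members of each list (number in brackets) for which wild-type replicate 1, left out of the comparison, was nearer the mean of the 7 MSTN+/- libraries (red) or nearer the mean of wild-type replicates 2 and 3 (blue) on the log2(FPKM + 1) scale. The dotted line is the share of all tested genes with a symbol, 65.6%. The interferon, MHC class I, complement, detoxification and cholesterol synthesis lists lie far to its left.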

How the data were processed

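The members of the comparison and the 29 program and 16 marker lists were chosen with earlier results of these data known, so their counts are descriptions. The authors deposited 1 table of FPKM per gene and library, per the file headers. How the reads were aligned and counted, and to which genome, is not given in the sources used here. Columns were tied to libraries by title and groups taken from the genotype label, and replicate numbers follow the order of the records and pair nothing. Genes with 1 FPKM or more in 2 or more of the 9 libraries entered a linear model of log2(FPKM + 1) in limma 3.58.1 (R 4.3.3), with a trended prior, no covariate and 7 residual degrees of freedom. P-values were adjusted over all genes tested (Benjamini-Hochberg), and 0.05 was the threshold. Differences on this scale understate changes of low genes. The fit was run on simulated data with 50 genes changed at each of 2-, 4-, 8- and 16-fold. The changed genes were drawn from those with a mean log2(FPKM + 1) of 3 or more, so low genes were not covered. The fit recovered 94% to 100% of them, with 5.37% of calls false. Far fewer genes changed there than were called here, and no library was chosen by likeness, so that run checks the code and not these calls. Of 840 listed symbols, 829 had a row. Named were Mstn, the 12 largest changes in each direction among called genes that did not overlap and had a mean of 5 FPKM in a group, for each list the 3 members with the smallest p in the direction of its median and 1 in the other, the 8 most variable genes among the 7, the 8 most different between the pair, and markers at 10 FPKM. Some genes that this rule names are not reported here. Other genes were named after their values were seen. Rows with 900 blank symbols stayed in the fit, and 27 symbols turned into dates were not named.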

Additional observations from a re-analysis of the deposited data

Results flagged for a closer look

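Of 139 named genes examined for a single stray library among the 7 MSTN+/- libraries, 16 had 1 library farther from the rest than Dixon's 95% limit for 7 values, where chance gives about 1 in 20. In 12 of the 16 the stray library was MSTN+/- replicate 7. It was lowest for Sesn2 (22.5 FPKM, others 29.8 to 33.2), Rrn3 (23.1, others 28.3 to 32.7), Cyc1 (49.4, others 59.0 to 65.8), Atp5b (397, others 486 to 554), Shmt1 (6.88, others 13.9 to 16.2), Sqle (18.4, others 27.8 to 32.4), Stard4 (5.45, others 7.29 to 8.89), Psmd11 (43.0, others 51.5 to 58.3), Psmb6 (84.2, others 102 to 113) and Psmd12 (39.8, others 49.6 to 56.8). It was highest for the lysosomal genes Ctsf (39.4 FPKM, others 27.0 to 30.8) and Naglu (22.9, others 14.5 to 16.4). MSTN+/- replicate 4 was highest for Ddx4 (1.52 FPKM, others 0.18 to 0.52) and Diaph1 (1.58, others 0) and lowest for Rps9 (1103, others 1233 to 1317). MSTN+/- replicate 6 was lowest for Pbld1, at 0 FPKM with the others at 0.39 to 0.53.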

How the results depend on the processing

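The number of genes called higher was 4175 to 6408 and of genes called lower 3537 to 5590 over the other scalings, pseudocount, filters and variance settings, each within 1.5 times the reported count. Leaving out each of the 9 libraries gave 5189 to 5968 higher and 3803 to 4758 lower. With wild-type replicate 1 in the wild-type group the lower count was 1881, and 40 of 126 named calls ended, 30 of 64 lower and 10 of 62 higher. That fit also turned Snrpn (0.035) and the median of the contractile actin list (-0.10). The median of the ribosomal protein list turned with median-of-ratios scaling (-0.025) and quantile normalization (-0.011), and ran from -0.0011 (without MSTN+/- replicate 7) to 0.041 (without MSTN+/- replicate 4) when single libraries were left out, with -0.00056 when that was wild-type replicate 2. Genes named for their difference between the pair took opposite signs without wild-type replicate 3 or 2: Hist1h2an (-0.77 and 6.38), Atp6v0c-ps2 (-0.36 and 6.08), Eif3j2 (-0.62 and 4.20), Mid1 (-0.72 and 3.78) and Snord99 (1.24 and -2.76). Calls of Rpl10a and Stard4 ended under another scaling, Rpl10a with median-of-ratios factors (adjusted p = 0.081) and Stard4 with quantiles (adjusted p = 0.061). The cause of these changes was not tested. No paired analysis was possible because the labels carry no replicate numbers. With 2 wild-type libraries, chosen for likeness, and no read counts, the precision of a single gene's level is not known.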

Other observations

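Of 14530 genes, 573 (3.94%) had a log2 difference of 1 or more between wild-type replicates 2 and 3, 367 higher in replicate 2 and 206 in replicate 3. Among the largest were near copies of another gene whose level moved the opposite way. Eif3j2 had 27.4 and 0 FPKM in replicates 2 and 3, Eif3j1 39.6 and 63.5, and their sum was 67.0 and 63.5. Atp6v0c-ps2, a pseudogene, had 151 and 0.75 FPKM, Atp6v0c 85.3 and 187, and their sum was 236 and 188. Hist1h2an (140.3 and 0 FPKM), Mid1 (105 and 3.69), Gm5779 (17.5 and 0.15), Diaph1 (0.04 and 16.2) and Snord99 (0 and 15.1) were also among the 8 largest. The MSTN+/- libraries and wild-type replicate 1 were nearer replicate 2 for Eif3j2, at 15.1 to 21.7 and 21.2 FPKM.

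Among the 7, the most variable genes were a pair of copies and small RNAs. Tmem254b had 32.2 to 40.8 FPKM in MSTN+/- replicates 1, 2, 3 and 6 and 0.08 to 3.32 in replicates 4, 5 and 7. Tmem254c had 1.13 to 3.20 FPKM in the former and 30.0 to 31.6 in the latter. The sum of Tmem254a, Tmem254b and Tmem254c was 32.1 to 42.4 FPKM in the 7. Mir3082, Mir7649, Mir5130, Snord58b, Snord37 and Snord19 were each listed at 0 in at least 1 of the 7 and reached 15.0 to 39.7 FPKM in another, and none passed the threshold.

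Genes of the sex chromosomes were looked up after the values had been seen. Xist, the RNA that silences an X chromosome, had 3.05 and 2.57 FPKM in wild-type replicates 2 and 3, at most 0.33 in the 7 and 0.02 in wild-type replicate 1. The Y-linked genes Eif2s3y and Ddx3y were present in all 10 libraries, and wild-type replicate 3 had the least, 3.44 FPKM of Eif2s3y against 35.9 in replicate 2 and 24.0 to 33.1 in the 7, and 4.54 of Ddx3y against 9.51 and 13.8 to 17.4. Uty and Kdm5d were lowest in the same library, at 2.32 and 0.81 FPKM. The labels do not give the sex of the animals.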
